A study of Mus musculus with 8 samples.

Results

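Cytosolic ribosomal protein genes encode the structural proteins of the ribosome that translates nuclear mRNA. Proteins of the large subunit (Rpl, with the acidic stalk proteins Rplp) build the peptidyl transferase side and the exit tunnel, and those of the small subunit (Rps) build the part that decodes mRNA. Each mature ribosome holds about equal numbers of most of them, their mRNAs are among the most abundant in growing tissue, and mammalian genomes carry many processed pseudogenes copied from these mRNAs. The members were all symbols of the count table named Rpl, Rps or Rplp followed by a number and at most a short suffix, which gave 83 genes of 22869 symbols, 51 of the large subunit and 32 of the small subunit. Mitochondrial ribosomal proteins and ribosomal proteins with other names (such as Rpsa, Fau and Rack1) fall outside that rule and are described separately.

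The series measured total RNA, depleted of ribosomal RNA, from C57BL/6 mouse embryos at E12.5. Mutants are labelled NfatC1+/-; KLF2fl/fl and controls wild type, while the series text names KLF2 fl/fl mice as the comparison, so whether the controls carry floxed alleles is not settled by the labels. The 4 groups, of 2 libraries each, are mutant AV cushion, wild type AV cushion, mutant ventricle and wild type ventricle. The labels name no Cre line, do not say which cells lost Klf2, and do not say whether a library holds 1 embryo or several. Library totals were between 18955733 and 26579215 counts with 1 table row kept per symbol (26562828 to 37694738 over all rows), and levels are given in CPM, counts scaled to library size, of which 1 stands for 18.7 to 25.3 counts.

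Klf2 itself, the targeted gene, stood at 1.96 and 0.651 CPM in mutant cushions, against 17.3 and 12.9 CPM in wild type cushions, and at 0.735 and 0.625 CPM in mutant ventricles, against 11.7 and 9.19 CPM in wild type ventricles. The 2 genotypes do not overlap in either tissue. In edgeR its adjusted p was 0.145 in cushion and 0.269 in ventricle, and 2.86e-05 and 4.56e-05 with the replicate number as a block. The summed level of 12 cushion mesenchyme markers was 8667 to 19141 CPM in the cushion libraries and 1917 to 5260 CPM in the ventricle libraries, and that of 16 cardiomyocyte markers 34027 to 51117 CPM in cushion and 51861 to 109903 CPM in ventricle. The cushion libraries thus hold cardiomyocyte RNA as well. In bulk tissue, fewer cells of a type and less RNA per cell cannot be told apart. Replicate 1 had a larger share of Ttn counts than replicate 2 in every group, over a range of 1.09% to 6.48%.

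The genes did not appear at similar levels in the table. Averaged over the 8 libraries, and divided by transcript length, the 76 members other than paralogues and Rps4y2 spanned a 827-fold range. Rpl4, a protein of the exit tunnel wall, was highest at 691 CPM per kb, followed by Rps4x at 523 CPM per kb. Rps3, a protein at the mRNA entry site, was also among the highest at 448 CPM per kb. Rps16 was lowest at 0.835 CPM per kb, next to Rpl28 at 0.913, Rps23 at 2.40 and Rps13 at 2.53 CPM per kb. The top of this order depends on the length used. Divided by the length of the coding sequence, Rpl41 (1628 CPM per kb), Rpl39 (1241) and Rps3 (1172) stood above Rpl4 (845). Rps16 was still lowest of the 76 in that measure, at 2.12 CPM per kb. Without division by length, 23 of the 83 members averaged under 10 CPM and 28 averaged 100 CPM or more. Rps16 had 16 to 29 counts per library, whereas Rpl4 had 18860 to 28693.

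The low and high members differed in how much of their coding sequence exists elsewhere in the genome. For each member, every 50-base window of its coding sequence (GENCODE M21, GRCm38) was looked up in the transcripts of genes at other loci, pseudogenes included. Rps4y2 has no annotated coding sequence, and its whole transcript was used. In 80 of the 83 members at least 1 pseudogene shared such a window, with a median of 8 pseudogenes and up to 121, for Rpl7a. All windows of 29 members occur at another locus. Among the 76 members above, those 29 had a median level of 11.1 CPM per kb, the 36 with 50% to under 100% of windows shared had 67.02 CPM per kb, and the 11 with under 50% shared had 351 CPM per kb. Of the 29 fully shared genes 16 averaged under 10 CPM, and of the 11 least shared genes 0 did. Spearman's rho between level per kb and shared share was -0.70 across the 76 genes, which come from the same 8 libraries and are not independent. It was -0.68 with 36-base and -0.74 with 75-base windows, and -0.67 when levels were divided by coding length. The same levels had a rho of 0.12 with transcript length and of -0.01 with GC content.

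The sequences below show the difference at the base level. Each pair gives 60 bases from the middle of a coding sequence and the aligned stretch of the pseudogene that shares most of its windows, written 5′ to 3′ on the transcript strand, with differing bases in capitals. Rps16 (chromosome 7, coding bases 190 to 249 of 438) and Rps16-ps2 (chromosome 5) are identical over the whole coding sequence:
Rps16: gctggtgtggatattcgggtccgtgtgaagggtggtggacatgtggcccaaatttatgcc
Rps16-ps2: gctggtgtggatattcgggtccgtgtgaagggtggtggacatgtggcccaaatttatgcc
Rpl28 (chromosome 7, coding bases 176 to 235 of 411) and Rpl28-ps1 (chromosome 1) are likewise identical throughout:
Rpl28: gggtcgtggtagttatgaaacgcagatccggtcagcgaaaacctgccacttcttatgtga
Rpl28-ps1: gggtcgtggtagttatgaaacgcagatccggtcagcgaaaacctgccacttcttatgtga
Rpl4 (chromosome 9, coding bases 599 to 658 of 1257) and Gm5835 (chromosome 1) match at 97.3% of aligned bases, with 2 differences in the stretch shown:
Rpl4: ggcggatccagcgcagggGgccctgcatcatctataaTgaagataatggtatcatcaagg
Gm5835: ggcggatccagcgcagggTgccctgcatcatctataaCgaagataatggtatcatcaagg
Rps3 (chromosome 7, coding bases 335 to 394 of 729) and Gm8130 (chromosome 16) match at 95.8% of aligned bases, again with 2 differences in the stretch:
Rps3: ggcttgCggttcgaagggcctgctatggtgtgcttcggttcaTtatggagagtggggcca
Gm8130: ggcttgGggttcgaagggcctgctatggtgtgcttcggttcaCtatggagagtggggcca

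A near-complete copy of Rpl4 therefore exists, but its scattered differences leave only 20.3% of the 50-base windows of Rpl4 shared. Gm8130 aligns to 78.2% of the Rps3 coding sequence, and 8.09% of the windows of Rps3 are shared. Full sharing of the coding sequence did not always go with a low level. Rpl41, the smallest ribosomal protein, stood at 210 CPM per kb and Rpl13 at 129 CPM per kb although all of their coding windows are shared. Rps4x was the second highest gene per transcript length, with 90.1% shared. Per coding length Rpl41 and Rpl39, with 100% and 86.5% shared, stood highest. The coding sequence of Rpl41 is 75 of 582 transcript bases, and windows outside coding sequences were not looked up. At the other end, Rps21 was the lowest of the least shared genes among the 76, at 92.8 CPM per kb. Outside that set, the paralogues Rpl3l and Rpl39l, with 0% of windows shared, stood at 0.243 and 0.382 CPM per kb. Reads were aligned to mm9 with Bowtie 0.12.7 per the submitters' processing notes, and how reads with several matches were handled is not given in the sources used here, so the part of shared sequence in these levels was not tested. Levels of the highly shared members are uncertain for that reason, since their reads could be split among copies or left out.

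**Figure D1:**
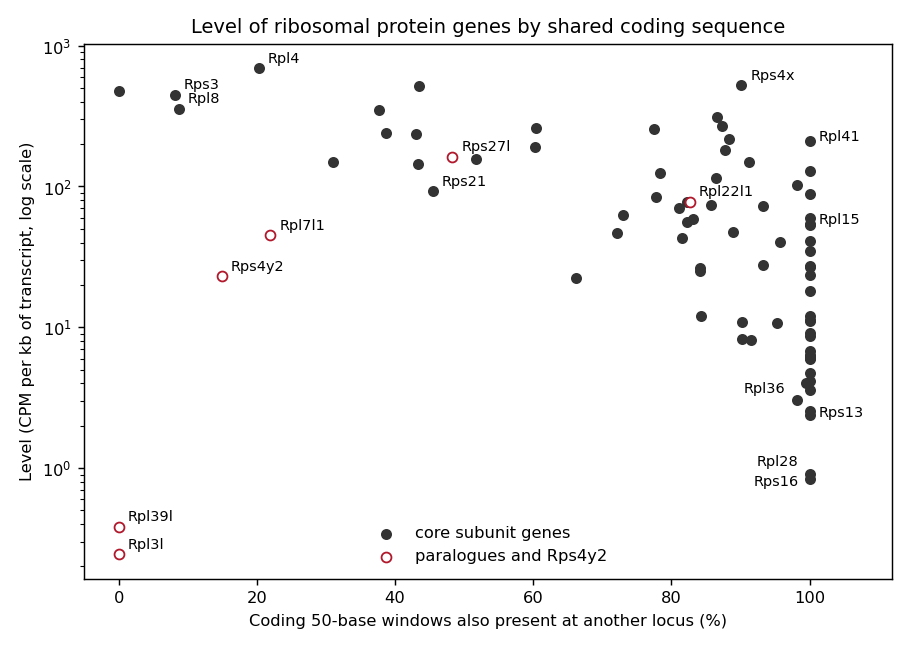
Level of each ribosomal protein gene (vertical, mean CPM per kb of transcript over 8 libraries, log scale) against the share of its 50-base coding windows found at another locus (horizontal, percent). Filled points are 76 core subunit genes and open points the paralogues and Rps4y2; Rpl10l, at 0, is left out. Among the filled points, genes with little shared sequence sit high, and those with all of it shared span 0.835 to 210 CPM per kb. The open points Rpl3l and Rpl39l, with 0% shared, sit lowest at 0.243 and 0.382 CPM per kb.

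All members together held a small and variable share of the counts. It was 0.806% and 0.898% in mutant cushions, against 0.788% and 0.956% in wild type cushions, and 0.764% and 1.10% in mutant ventricles, against 0.717% and 0.919% in wild type ventricles. The genotypes overlap in both tissues and the tissues overlap in both genotypes, and the means were 0.852% ± 0.0653 in mutant cushion, 0.872% ± 0.119 in wild type cushion, 0.934% ± 0.240 in mutant ventricle and 0.818% ± 0.143 in wild type ventricle (SD, n = 2 each). Replicate 2 had the higher share in each of the 4 groups. On the log2 scale, 79 of 81 tested members (97.5%) were higher in replicate 2 than in replicate 1 on average over the groups. The median difference was 0.18, against 54.6% and 0.03 over all 14940 symbols tested. Across all symbols this difference fell with transcript length (Spearman's rho -0.45), and across members rho was -0.08. Members tested had a median transcript length of 851 bases, against 2959 bases over all symbols tested. The part of length in the members' difference was not tested. The ratio of large-subunit to small-subunit counts was 1.15 and 1.13 in mutant cushions, 1.11 and 1.11 in wild type cushions, 1.17 and 1.16 in mutant ventricles and 1.22 and 1.27 in wild type ventricles. Both wild type ventricle libraries lie above all others in that ratio.

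The filter on low counts kept 81 of the 83 members, leaving out Rpl10l, an autosomal retrocopy known from testis with 0 counts in every library, and Rpl39l, another germ-cell paralogue, with 4 to 10 counts per library. In mutant against wild type cushions, none of the 81 passed an adjusted p of 0.05 in edgeR, in a comparison where 0% of all 14940 symbols passed. DESeq2 also called 0 members, and 25 of all symbols (0.167%). Unadjusted p was under 0.05 in 6 members, against 11.4% of all symbols. The members' median log2 fold change was 0.07, with 47 of 81 positive, against -0.01 over all symbols. The libraries of the 2 genotypes did not overlap for 28 members higher in mutants (24.5% of all symbols) and for 25 lower in mutants (23.9% of all symbols).

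Of the 6 members with an unadjusted p under 0.05, 5 had higher values in mutant cushions (Rpl15, Rps6, Rpl39, Rpl5 and Rpl22l1), with a GC content of 40.6% to 50%, and Rps4y2, with 59.1% GC, had lower values. Rpl15, a large-subunit protein, had 111 and 108 CPM in mutant cushions, against 83.7 and 77.5 CPM in wild type cushions. Its log2 fold change was 0.44 ± 0.15 (SE) with an adjusted p of 0.435 in edgeR. Rps6, the small-subunit protein phosphorylated by S6 kinases, had 25.7 and 24.0 CPM in mutant cushions, against 18.5 and 17.1 CPM in wild type cushions. Its log2 fold change was 0.48 ± 0.18 (SE), also with an adjusted p of 0.435 in edgeR. Mutant libraries stood above both wild type libraries for both genes, but neither passed the test. The opposite end was held by Rpl29, with 4.07 and 3.26 CPM in mutant cushions, against 4.32 and 14.0 CPM in wild type cushions. Its log2 fold change was -1.33 ± 0.74 (SE; adjusted p = 0.501, edgeR), and it was -0.24 without wild type cushion replicate 2 and -1.95 without wild type cushion replicate 1.

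Across the members, the genotype difference in cushion followed GC content. The 27 members of lowest GC (40.6% to 49.2%) had a median log2 fold change of 0.25, with 23 of 27 positive, and the 27 of highest GC (53.3% to 60.8%) had -0.22, with 11 of 27 positive. Spearman's rho of fold change with GC was -0.58 across the 81 members and -0.62 across all symbols with a GC value, with the same sign in both. A spline of fold change on GC and length over all symbols gave the low-GC members a median of 0.15 and the high-GC members -0.16. With the GC and length correction applied within each library, the members' median was -0.00, and 40 of 81 were positive.

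In mutant against wild type ventricles again none of 81 members passed in edgeR, where 0% of all symbols passed, and DESeq2 called 0 members and 1 of all symbols (0.00669%). Unadjusted p was under 0.05 in 4 members, against 2.29% of all symbols. The median log2 fold change was 0.09, with 55 of 81 positive, against -0.01 over all symbols. This median depended on 1 library: it was -0.11 without mutant ventricle replicate 2 and 0.29 without mutant ventricle replicate 1. Rps14, a small-subunit protein near the platform, had the highest test value among positive members, with 94.4 and 143 CPM in mutant ventricles, against 81.04 and 84.6 CPM in wild type ventricles. Its log2 fold change was 0.52 ± 0.20 (SE; adjusted p = 0.998, edgeR). Rpl17 had 7.15 and 8.30 CPM in mutant ventricles, against 9.51 and 13.7 CPM in wild type ventricles, a log2 fold change of -0.59 ± 0.22 (SE; adjusted p = 0.998, edgeR). Here the relation with GC ran the other way, with a rho of 0.47 across members and 0.47 across all symbols. Members were higher and lower in non-overlapping libraries in 6 and 9 cases, against 13.1% and 14.6% of all symbols.

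The difference between the 2 genotype effects, tested as an interaction, passed for 0 of 81 members and for 0% of all symbols in edgeR, and for 0 in DESeq2. Unadjusted p was under 0.05 in 10 members and in 11.9% of all symbols. Rpl15 had the smallest p, with an interaction of 0.73 ± 0.21 (SE, log2; adjusted p = 0.415, edgeR), followed by Rps14 with -0.82 ± 0.28 and Rps6 with 0.72 ± 0.26 (SE, log2; adjusted p = 0.415 and 0.415, edgeR). The relation with GC had the same sign in both sets, with a rho of -0.58 across members and -0.68 across all. The spline over all symbols gave an interaction of 0.35 at the GC and length of Rpl15. With the GC and length correction its interaction was 0.33 (adjusted p = 0.996, edgeR).

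**Figure D2:**
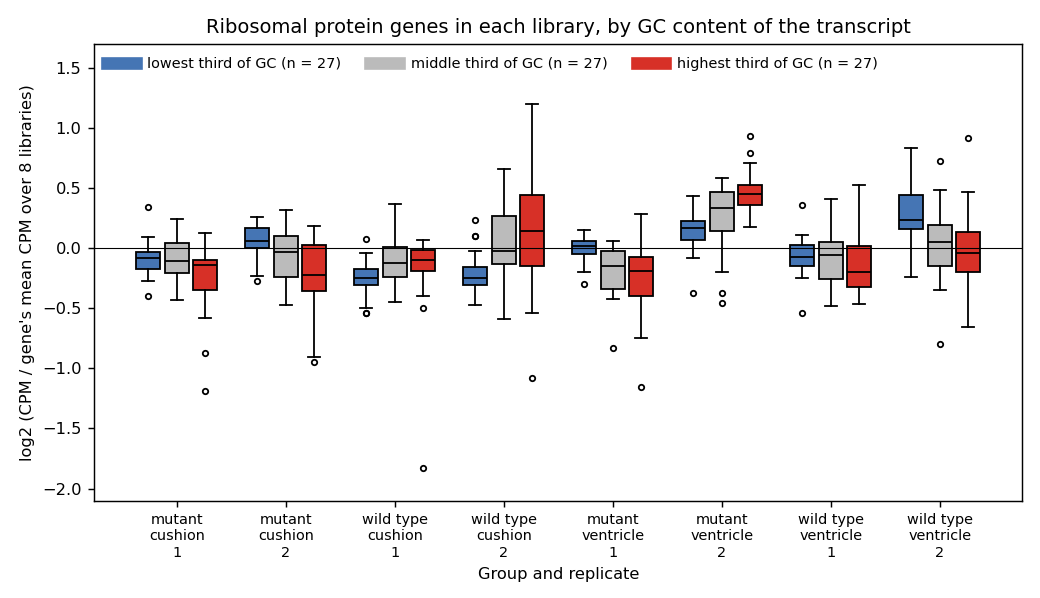
Level of 81 ribosomal protein genes in each library (vertical, log2 of CPM over the gene's mean CPM in 8 libraries), split by GC content of the transcript into 3 sets of 27; libraries run along the horizontal axis by group and replicate. Boxes give quartiles, whiskers reach up to 1.5 times the box height, and points lie beyond. High-GC genes sit highest in mutant ventricle replicate 2 and wild type cushion replicate 2.

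The box plot of members by library shows how unevenly this axis fell on the libraries. The high-GC members stood at a median of 136% of their own 8-library mean in mutant ventricle replicate 2 and 111% in wild type cushion replicate 2, but at 85.6% to 97.3% in the other 6 libraries. The low-GC members stood at 84.1% and 84.4% in the 2 wild type cushion libraries, and at 118% in wild type ventricle replicate 2. Rpl8, a GC-rich large-subunit gene, had 279 and 248 CPM in mutant cushions, against 304 and 445 CPM in wild type cushions, and 231 and 438 CPM in mutant ventricles, against 228 and 263 CPM in wild type ventricles. Rps9 followed the same libraries, with 175 and 125 CPM in mutant cushions, against 184 and 263 CPM in wild type cushions, and 133 and 254 CPM in mutant ventricles, against 140 and 148 CPM in wild type ventricles. For both genes the same 2 libraries, 1 of each genotype and tissue, stand apart from the other 6.

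Wild type cushion against wild type ventricle was the comparison in which members passed. In edgeR 8 of 81 passed, where 23.1% of all symbols passed. All 8 were lower in cushion, as were 10.6% of all symbols, and 0 members were higher, against 1861 of all 14940 symbols. The 8 were Rpl15, Rpl23, Rpl27a, Rpl31, Rpl39, Rpl5, Rps6 and Rpl3l; Rpl3l was kept by the filter on low counts through its ventricle libraries, and without the filter the other 7 passed. The share of members called lower is near that of all symbols. The median log2 fold change of members was -0.18, with 31 of 81 positive, against 0.01 over all symbols. Libraries of the 2 tissues did not overlap for 18 members higher in cushion (33.5% of all symbols) and for 37 lower in cushion (31.8% of all symbols). With the replicate number as a block, 19 members were lower, against 20.1% of all symbols, and 3 were higher (Rpl7a, Rps14 and Rps18), against 21.2% of all symbols.

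Rpl23, a large-subunit protein on the face toward the small subunit, had 91.5 and 98.4 CPM in wild type cushions, against 131 and 157 CPM in wild type ventricles. Its log2 fold change was -0.60 ± 0.15 (SE; adjusted p = 0.0218, edgeR). Rpl15 had 83.7 and 77.5 CPM in wild type cushions, against 107 and 140 CPM in wild type ventricles. It fell by 0.61 ± 0.15 on the log2 scale (SE; adjusted p = 0.0212, edgeR). Rpl5, which binds 5S ribosomal RNA and, outside the ribosome, the p53 regulator Mdm2, had 44.9 and 40.0 CPM in wild type cushions, against 56.2 and 77.2 CPM in wild type ventricles. It fell by 0.65 ± 0.16 on the log2 scale (SE; adjusted p = 0.0245, edgeR). Rpl39, which lines the exit tunnel, had 131 and 139 CPM in wild type cushions, against 174 and 290 CPM in wild type ventricles, and fell by 0.78 ± 0.21 (SE; adjusted p = 0.0315, edgeR). In all 4 genes wild type ventricle replicate 2 held the highest value of all 8 libraries. Rps6 had 18.5 and 17.1 CPM in wild type cushions, against 22.7 and 32.7 CPM in wild type ventricles, with an adjusted p of 0.0394 in edgeR. Rpl31 and Rpl27a fell by 0.61 and 0.55 on the log2 scale, with adjusted p of 0.0325 and 0.0431 in edgeR.

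These calls changed with single libraries and lay on the low-GC side. They did not hold without wild type cushion replicate 1, without wild type cushion replicate 2 or without wild type ventricle replicate 2. Each of those fits leaves 1 library in a group, and a smaller share of all symbols passed in them too. The members' median log2 fold change was between -0.31 and -0.04 over the 8 fits that leave out 1 library. The 7 other than Rpl3l have a GC content of 42.7% to 50%, below the members' median of 51.8%. Rpl15, Rpl27a, Rpl31, Rpl5 and Rps6 have all coding windows shared with other loci, and Rpl23 and Rpl39 86.5% each. Their levels are uncertain for that reason. Fold change rose with GC, with a rho of 0.48 across members and 0.39 across all symbols. The 27 members of lowest GC had a median log2 fold change of -0.39 and the 27 of highest GC 0.06. The spline over all symbols gave a median of -0.24 and 0.11 for those 2 sets.

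With the GC and length correction, 7 members passed in edgeR, 5 higher and 2 lower, where 13.4% of all symbols were higher and 10.3% lower, and 1 of these 7, Rpl3l, was among the 8 called without it. The median of members moved to 0.06. Rps18, a protein of the small-subunit head, had 107 and 131 CPM in wild type cushions, against 74.1 and 88.7 CPM in wild type ventricles. Its log2 fold change was 0.55 ± 0.20 without correction (SE; adjusted p = 0.0823, edgeR) and 0.66 with it (adjusted p = 0.00345, edgeR). Rpl7a, Rps14 and Rpl41 were also called higher, with corrected log2 fold changes of 0.56, 0.72 and 0.65. Rplp1 of the stalk had 99.5 and 103 CPM in wild type cushions, against 135 and 148 CPM in wild type ventricles, with a log2 fold change of -0.48 both without and with correction (adjusted p = 0.0644 without it, 0.0286 with it and 0.00404 with the block, edgeR). Rpl23 and Rpl15 kept a negative corrected value, -0.23 and -0.25, with adjusted p of 0.0687 and 0.103 in edgeR. When block and correction were combined, 12 members were higher and 7 lower, against 20.8% and 18.7% of all symbols. Of the 8 called without either, 5 were called in that fit: Rpl15, Rpl23, Rpl27a, Rpl5 and Rpl3l.

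**Figure D3:**
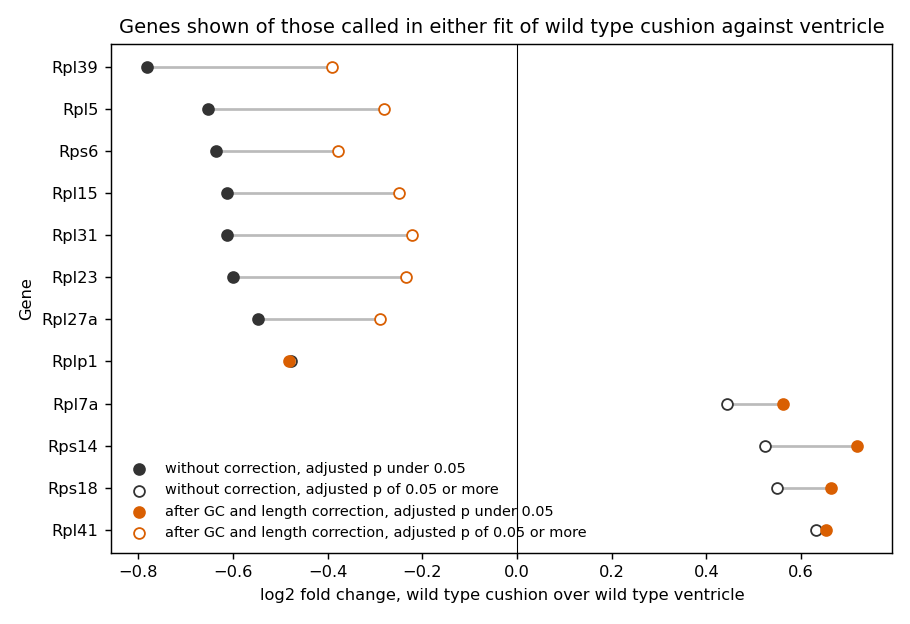
Log2 fold change of wild type cushion over wild type ventricle (horizontal) for 12 of the 14 ribosomal protein genes called in either fit (rows; Rpl3l is among those left out); black is without and orange with the GC and length correction, filled where adjusted p is under 0.05. No gene shown is filled in both.

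In mutant cushion against mutant ventricle, 0 of 81 members passed in edgeR, where 6.16% of all symbols were higher and 3.26% lower, and DESeq2 called 0, against 12.1% of all symbols. Unadjusted p was under 0.05 in 3 members, against 25% of all symbols. The median log2 fold change was -0.19, with 13 of 81 positive, against 0.01 over all symbols, and it was 0.03 without mutant ventricle replicate 2 and -0.38 without mutant ventricle replicate 1. With the block, Rplp1 and Rps4y2 were lower, against 10.5% of all symbols. Rplp1 had 106 and 132 CPM in mutant cushions, against 137 and 173 CPM in mutant ventricles, and fell by 0.38 (adjusted p = 0.189 without and 0.0234 with the block, edgeR). Rps4y2, which current annotation lists as the transcribed pseudogene Rps4l, had 16.5 and 16.7 CPM in mutant cushions, against 19.2 and 31.7 CPM in mutant ventricles. Its adjusted p was 0.169 without and 0.0180 with the block in edgeR. With the GC and length correction Rps12 alone was higher, against 8.45% of all symbols (log2 fold change 0.63, adjusted p = 0.0421, edgeR). It had 125 to 176 counts per library, and all of its coding windows are shared with other loci. The members' corrected median was -0.00. Fold change fell with GC here, with a rho of -0.59 across members and -0.17 across all symbols. The members of lowest and highest GC had medians of -0.10 and -0.34.

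**Figure D4:**
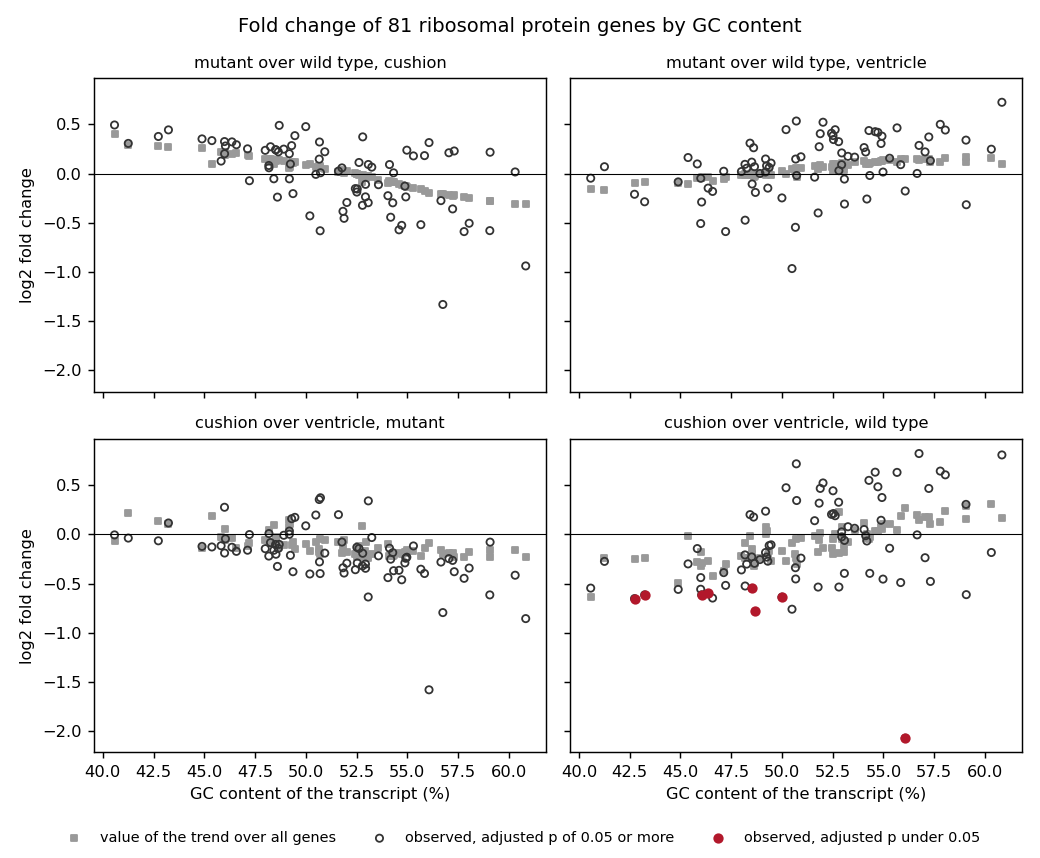
Log2 fold change of 81 ribosomal protein genes (vertical) against the GC content of their transcripts (horizontal, percent) in 4 comparisons. Circles are observed values, red where adjusted p is under 0.05, and grey squares are the values of a spline on GC and length over all symbols at each gene's GC and length. The slope is negative in both comparisons that have mutant cushion on top and positive in the other 2.

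The paralogues did not all follow their parent genes. Rpl3l, a striated-muscle form of the peptidyl transferase protein Rpl3, had 3 and 4 counts in mutant cushions, against 10 and 13 in mutant ventricles, and 2 and 4 counts in wild type cushions, against 9 and 12 in wild type ventricles. In CPM these were 0.147 and 0.174 in mutant cushions, against 0.409 and 0.580 in mutant ventricles, and 0.0939 and 0.158 in wild type cushions, against 0.481 and 0.634 in wild type ventricles. All 4 cushion libraries lie below all 4 ventricle libraries. The log2 fold change of cushion over ventricle was -2.07 ± 0.59 in wild type and -1.58 ± 0.57 in mutants (SE). The gene passed the filter on low counts through its ventricle libraries, where it is high, so these values are a description. Its adjusted p in wild type was 0.0372 in edgeR with the filter and 0.0534 without it, and it was between 0.0511 and 0.172 in the 8 fits that leave out 1 library. The cardiomyocyte marker sum moved the same way between tissues, and its part in this difference was not tested. Per transcript length, Rpl3l stood at 0.00169 to 0.00424 of the level of Rpl3 in cushion libraries and at 0.00747 to 0.0121 in ventricle libraries.

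Rpl22l1, a paralogue of Rpl22, had 41.6 and 50.1 CPM in mutant cushions, against 30.4 and 34.7 CPM in wild type cushions, and 44.4 and 47.6 CPM in mutant ventricles, against 36.6 and 58.5 CPM in wild type ventricles. It had the largest positive log2 fold change between genotypes in cushion, 0.49 ± 0.22 (SE; adjusted p = 0.438, edgeR), and the lowest GC content of the members tested, 40.6%. The spline over all symbols gave 0.41 at its GC and length, and the corrected value was 0.07. Rps27l had 70.5 and 91.1 CPM in mutant cushions, against 58.5 and 68.1 CPM in wild type cushions. Per transcript length it exceeded Rps27 between 14.9-fold and 50.5-fold over the libraries, and Rps27, with 29 to 58 counts per library, has all of its coding windows shared with other loci. Rpl7l1 stood at 0.150 to 0.216 of the level of Rpl7 per transcript length. Its 2 wild type cushion libraries (123 and 126 CPM) lay above both wild type ventricle libraries (99.0 and 113 CPM), without passing the test (adjusted p = 0.255, edgeR), although it passed with block and correction together (adjusted p = 0.0273, edgeR).

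**Figure D5:**
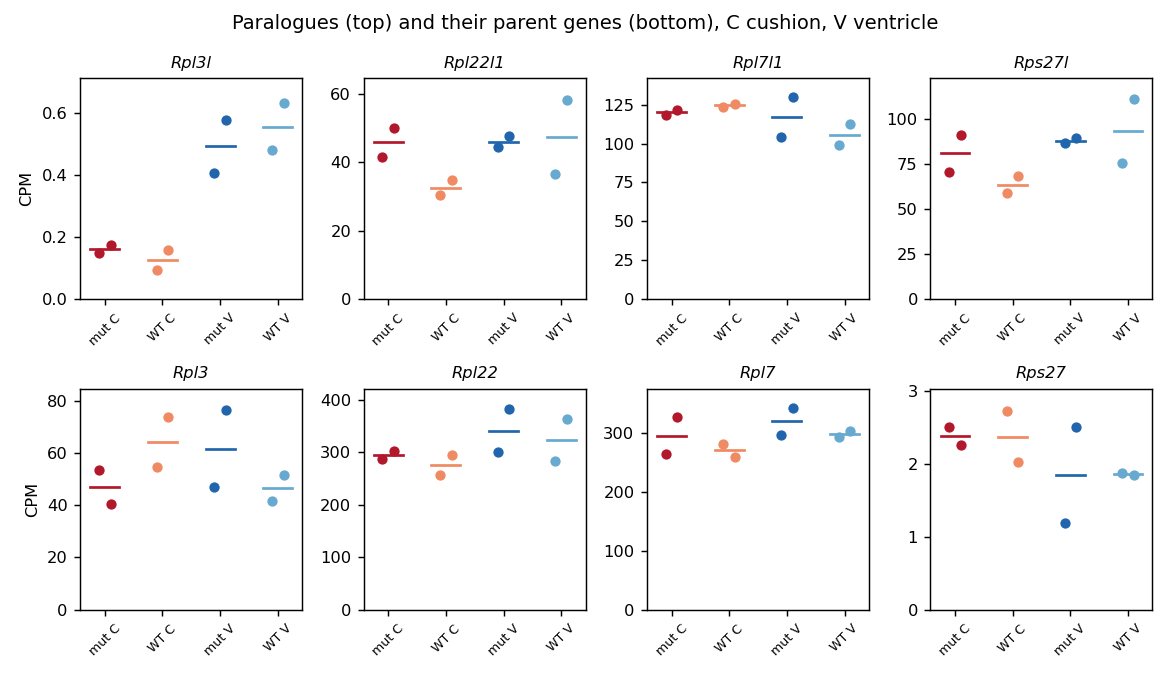
CPM of 4 paralogues (top row) and their parent genes (bottom row) in each library, by group (C cushion, V ventricle); points are libraries, bars the mean of 2, and each vertical axis starts at 0. Rpl3l is lower in all 4 cushion libraries than in all 4 ventricle libraries, and no such order is seen for Rpl3.

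The other stalk proteins, which with Rplp1 recruit elongation factors, passed in none of the 5 comparisons in edgeR with all 8 libraries. That was also so with the block, with the GC and length correction and with both. Rplp0 had 222 and 242 CPM in mutant cushions, against 258 and 243 CPM in wild type cushions, and 235 and 355 CPM in mutant ventricles, against 251 and 259 CPM in wild type ventricles. Rplp2 had 18.8 and 22.5 CPM in mutant cushions, against 18.7 and 16.4 CPM in wild type cushions, and 18.9 and 29.6 CPM in mutant ventricles, against 27.3 and 20.7 CPM in wild type ventricles.

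Of the ribosomal proteins with other names, none passed in any comparison without block or correction. Gnb2l1, which encodes the signalling scaffold RACK1 on the small subunit, had 949 and 953 CPM in mutant cushions, against 987 and 1057 CPM in wild type cushions, and 889 and 1173 CPM in mutant ventricles, against 748 and 857 CPM in wild type ventricles. In wild type cushion over ventricle its log2 fold change was 0.35 ± 0.17 (SE; adjusted p = 0.171, edgeR), with an adjusted p of 0.0471 with the block and 0.0275 with the GC and length correction. Rpsa, the laminin receptor homologue of the small subunit, had 122 CPM in wild type cushion replicate 2 and 114 CPM in mutant ventricle replicate 2, the libraries in which Rpl8 and Rps9 were also high, and 56.7 to 79.1 CPM in the other 6. Fau, made as a fusion with a ubiquitin-like protein, had 1.95 to 4.11 CPM.

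Mitochondrial ribosomal proteins build a separate ribosome for mitochondrially encoded mRNAs. Of 76 tested, 23 were lower in wild type cushion than in wild type ventricle and none were higher, against 10.6% lower and 1861 of 14940 higher among all symbols. Their median on the log2 scale was -0.37, and 20 were lower with the GC and length correction, against 10.3% of all symbols. In mutants 8 were lower in cushion and 0 higher, against 3.26% and 6.16% of all symbols, with a median of -0.35. Mrpl1 and Mrps30 fell by 0.81 and 0.68 in wild type cushion (adjusted p = 0.00939 and 0.0113, edgeR). Of 78 short subunits of the respiratory chain, 32 were lower and 1 higher in wild type cushion (10.6% and 1861 of 14940 among all symbols), with a median of -0.60. The cardiomyocyte marker sum was also lower in cushion than in ventricle, and its part here was not tested. The difference between these lists and the cytosolic ribosomal genes was not tested.

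Of 25 other genes whose mRNAs are reported to start, as those of ribosomal proteins do, with a pyrimidine tract, most of them for translation factors, 2 were lower and 2 higher in wild type cushion than ventricle. Over all symbols 10.6% were lower and 1861 of 14940 higher in that comparison. This list and the 3 that follow hold few genes, so nothing is read from their counts about the lists. The nucleolar protein gene Npm1 fell by 0.67 (adjusted p = 0.0259, edgeR) and the initiation factor gene Eif3k rose by 0.52 (adjusted p = 0.0486, edgeR). The other two are no translation factors: Vim, for the mesenchymal filament protein vimentin, rose by 0.60 (adjusted p = 0.0180, edgeR), and Ppia, for a prolyl isomerase, fell by 1.18 (adjusted p = 0.0282, edgeR). Of 40 genes of ribosome biogenesis, 6 were lower and 3 higher. Nmd3, the export adaptor of the large subunit, fell by 0.76 (adjusted p = 0.00759, edgeR), and Bop1, a factor for large-subunit rRNA processing, rose by 0.64 (adjusted p = 0.0200, edgeR). Of 16 genes of growth control, 3 were lower and 2 higher. Mycn, a transcription factor that drives ribosome production, fell by 0.78 (adjusted p = 0.00654, edgeR), and Rheb, the activator of mTORC1, by 0.77 (adjusted p = 0.0148, edgeR). Of 15 p53 targets, Ccng1 fell by 0.97 (adjusted p = 0.00342, edgeR) and Phlda3 rose by 1.01 (adjusted p = 0.00792, edgeR). In mutant against wild type cushions and ventricles, 0 genes of these lists passed in edgeR or with the block.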

How the data were processed

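Counts per table row for 8 libraries were deposited by the authors as whole numbers. RNA was ribosomal RNA-depleted and libraries were stranded, per the labels' protocols; the submitters' processing notes name Bowtie 0.12.7 and mm9. Counting program, annotation and strand use are not given in the sources used, so genes that overlap on opposite strands are uncertain. The 8 deposited tables were identical, and 28644 rows gave 22869 symbols, with the row of largest total kept; 9 members had more than 1 row, whose lowest total was at least 94.0% of the highest. The members and lists were chosen with earlier results of these data known.

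Counts were tested with edgeR 4.0.16 (R 4.3.3): TMM scaling, filtering by group, which kept 14940 symbols with 99.97% of counts, a robust quasi-likelihood fit of 4 groups to all 8 libraries, Benjamini-Hochberg adjustment over all symbols and a threshold of 0.05; tests were two-sided. SE is the log2 fold change over the root of F. CPM are TMM-scaled. DESeq2 1.42.0 and other alternatives are given in the closing section. The edgeR fit was tested on simulated data for mutant against wild type cushion, without the filter, the block or the correction. Libraries of a group differed by more than sampling noise (chi-square per degree of freedom 45.5 to 118); the labels do not say that they are separate embryos, so p-values reflect a spread that may be technical.

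Replicate numbers pair samples by the data, not the labels: deviations of replicates from group means correlated between all pairs of groups (Pearson r across genes 0.341 to 0.522). Lengths, GC content and sequences came from GENCODE M21 transcripts (GRCm38), matched by symbol for 83 of 83 members and for 98.7% of tested symbols; no coordinates were transferred to mm9. The correction used per-library offsets from a spline with 5 degrees of freedom each on GC and log length, fitted on symbols with a mean above 1 CPM; the trend quoted was fitted on all tested symbols.

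Named per comparison were the 5 highest and 5 lowest fold changes among members of at least 1 CPM, members past the threshold, paralogues, stalk genes and the extremes of level; of these the text describes a selection, and Rpl8 and Rps9 were chosen after their values were seen. Values of some genes are not reported here.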

Additional observations from a re-analysis of the deposited data

How the results depend on the processing

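Calls among members depended on the replicate block and on GC content. In wild type cushion against ventricle 8 members passed in the fit without either, 22 with the replicate block, 7 with the GC and length correction and 19 with the replicate block and that correction. In mutant cushion against ventricle 0 became 2 with the replicate block, 1 with the correction and 2 with both. Leaving out 1 library in turn gave 0 to 10 calls in wild type cushion against ventricle and 0 to 1 in mutant cushion against ventricle without the block. Leave-one-out fits with the replicate block gave 0 to 13 calls in mutant against wild type cushion, 3 to 35 in wild type cushion against ventricle, 0 to 16 in mutant cushion against ventricle and 0 to 20 for the interaction. In these, leaving out mutant cushion replicate 1 gave 13, 35, 16 and 20 calls in that order, against 5.84%, 44.6%, 16.3% and 8.60% of all symbols, and leaving out mutant cushion replicate 2 also gave 35 in wild type cushion against ventricle; the lowest, 3, came without wild type cushion replicate 2 and without wild type ventricle replicate 2. Without mutant ventricle replicate 1 there were 32 in wild type cushion against ventricle, 15 in mutant cushion against ventricle and 17 for the interaction, and without mutant ventricle replicate 2 there were 31 in wild type cushion against ventricle. The cause was not tested. Where a pair is broken the lone sample is assumed to vary like the others. In wild type cushion against ventricle, fits without a mutant library called a share of members no higher than that of all symbols. It was higher for the other counts named without mutant cushion replicate 1 or mutant ventricle replicate 1. Nothing is read from these counts about the members. Mutant against wild type ventricle gave 0 members in every alternative run. DESeq2, RLE scaling, no filter, the smallest row per symbol and fitting only the libraries of a contrast left every count of members within 1.5 times of its first value. The replicate block changed no other count of members by over 1.5 times. Counts over all symbols moved more: those called in mutant against wild type cushion numbered 0, 25 with DESeq2 and 129 with the block. Named members never changed sign while called; 105 named values gained and 60 lost the threshold over all alternatives. Divided by all deposited rows, the members' share of counts was 0.502% to 0.788%. Genes such as Rpl28 had 11 to 33 counts per library, so counting error weighs most on the least abundant members; which differences could be detected at that depth was not tested. The windows of 36 and 75 bases and the coding length were chosen after seeing the data.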
